A study of Schizosaccharomyces pombe
Saccharomyces cerevisiae with 8 samples.

Results

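Ribosomal RNA processing factor genes encode the proteins that cut, trim, modify and fold the precursor of ribosomal RNA on its way into the small and the large ribosomal subunit. The genes were taken by annotation and not by any measured value: nuclear protein-coding features whose deposited annotation held the biological process term rRNA processing, without genes named as ribosomal proteins and without genes that also carried the term for spliceosomal mRNA splicing. The term stood on 110 features. The rule left out 11 of them, 4 for a ribosomal protein name and 7 for the splicing term. There remained 99 members among the 6518 features of the total RNA table, on 14 chromosomes, and 34 of them stood among the 2822 features listed for newly synthesized RNA. The deposited files gave a gene name to 38 members, and the other 61 are called here by their systematic identifier with the role that the files describe.

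The budding yeast strain (Saccharomyces cerevisiae, MATalpha) carried the rice auxin receptor OsTIR1 under the GPD1 promoter (pGPD1-OsTIR1) and the degron fusions MED14-3HA-IAA7 and MED17-3V5-IAA7, also in the DMSO controls. Every group also shared the strain's deletion alleles, at the marker genes ade2 (with hisG), his3, leu2, lys2, met15, trp1 and also ura3. Auxin leads to removal of tagged proteins, here Med14 and Med17, architectural subunits of the Mediator coactivator of RNA polymerase II. Cultures received 500 µM auxin or its carrier DMSO for 30 min, then 5 mM 4-thiouracil for 6 min, and 1 part of these cells was combined with 3 parts of fission yeast (Schizosaccharomyces pombe). Total RNA and the purified 4-thiouracil-labelled RNA, called newly synthesized RNA, gave 1 library each from 2 DMSO and 2 auxin cultures, and the series asks how far transcription as a whole needs these subunits. Total RNA libraries held between 10862028 and 17491251 counts. The alpha-cell genes STE3, SAG1 and MF(ALPHA)1 had between 569 and 4608 counts in every total RNA library, whereas the a-cell gene AGA2 had 0 or 1 and BAR1 10 to 22. The RNAs of the tagged subunits do not show whether the proteins were lost: in total RNA, MED14 (listed as RGR1) had normalized counts of 3249 and 3667 in DMSO and 1294 and 1564 in auxin. MED17 (listed as SRB4) had 2270 and 2812 against 617 and 742.

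In budding yeast, RNA polymerase I makes a long precursor from which most of the ribosomal RNAs are cut, while the factors that do the cutting are made from ordinary messenger RNAs by RNA polymerase II. Small nucleolar RNA particles guide the first cleavages and many base modifications, the small-subunit processome assembles on the early part of the precursor, and RNase MRP cuts between the parts for the small and the large subunit. Exonucleases trim the ends, helicases remodel the particles, and late factors are released before the subunits enter translation. These genes are known to be controlled together with the ribosomal protein genes according to growth.

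Values below are the deposited normalized counts, which are raw counts divided by the authors' size factor of each library, and log2 fold changes, which set auxin over DMSO. A gene is called lower or higher where edgeR's quasi-likelihood test, scaled by those size factors, gave a Benjamini-Hochberg adjusted p below 0.05 over all features tested. Per library, the median member of total RNA reached 94.9% and 105% of its mean DMSO level in the DMSO cultures and 30.4% and 34.6% after auxin. All 99 members passed the filter of a mean of 10 counts, and 94 were called lower after auxin, where 92.3% of all features tested were called lower. None (0) was called higher, against 0.769% of all features, and none (0) had an unadjusted p below 0.05 with a rise or was higher by DESeq2. The 5 that were not called were YMR229C, SSZ1, SSB1, SSB2 and ZUO1. The median member fell 3.09-fold, a median log2 fold change of -1.63 with quartiles of -1.94 and -1.13 and a range from -3.51 to 0.16. Over all 5589 features the median was -1.85, and 69 of the 99 members lay above it. The pooled SD between replicates was 0.118 for the median of the members and 0.0204 for the difference of 0.22 between the medians, on the log2 scale. In such bulk samples fewer S. cerevisiae cells and less RNA per cell cannot be told apart.

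Both auxin libraries lay below both DMSO libraries for 95 members, as they did for 94.6% of all features. A fall with a log2 fold change of -1 or less was called in 81 members, against 82.3% of all features. Both shares lay near those of yeast genes at large. With TMM scaling, built on the assumption of a mostly unchanged transcriptome, log2 fold changes moved up by 1.76 at the median of all features. The median member then stood at 0.13, with 43 members called higher and 19 lower, against 29.6% and 32.3% of all features. Since a scaling factor is common to all features of a library, either scaling leaves nearly the same place among other genes to the members. Their summed share of nuclear protein-coding counts, which needs no scaling factor, was 2.66% and 2.61% in the DMSO libraries and 2.6% and 2.64% in the auxin libraries, so the shares of the groups overlapped. Their share of all counts, other RNA classes included, was 2.2% in each DMSO library and 1.96% and 2.01% in auxin, without overlap.

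**Figure D1:**
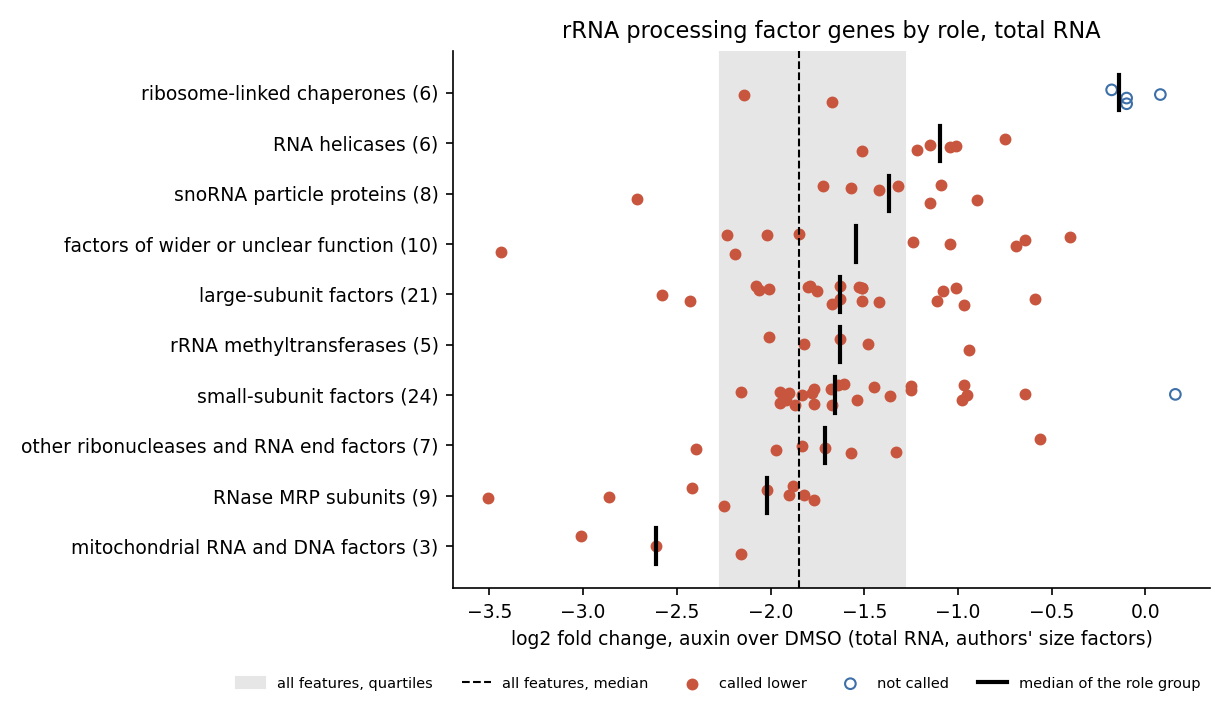
Log2 fold change of auxin over DMSO in total RNA for each of the 99 members (1 point each), by role group with the number of genes, with the authors' size factors. The short black bars are group medians, the dashed line and the grey band are the median (-1.85) and the quartiles of all features tested, and open circles mark the 5 genes not called. With TMM scaling every point moves up by about 1.76, so that the dashed line lies at -0.09.

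The small-subunit factors were the most numerous group, with 24 genes, most of them parts of the processome that forms around the U3 small nucleolar RNA. Counts of calls by role, here and for the roles that follow, stand beside 92.3% of all features called lower. With TMM scaling the shares of all features were 29.6% higher and 32.3% lower. Of the 24 small-subunit factors 23 were called lower in total RNA, and the median of the 24 log2 fold changes was -1.65. With TMM scaling 10 were called higher and 1 lower. NSR1, a nucleolar protein needed for precursor processing, had normalized counts of 6554 and 7600 in DMSO and 2182 and 2681 in auxin, a log2 fold change of -1.54 (SE 0.201 and edgeR adjusted p = 3.52e-14). Its auxin libraries lay far below its DMSO libraries, although with TMM scaling it was called higher by 0.22. BUD21, a processome component, fell most in the group, from 950 and 1070 to 215 and 235 (log2 fold change -2.16), and was the 1 member of the group called lower with TMM scaling too (-0.40). YGR090W, a processome component that the files also link to nuclear export of transfer RNAs, fell least among those called. Its counts were 3705 and 3700 in DMSO and 2037 and 2700 in auxin, a log2 fold change of -0.64, and with TMM scaling it was called higher by 1.11.

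YMR229C (chromosome XIII, 725934 to 731123, build sacCer3) was the small-subunit factor that was not called. The files describe it as an RNA binding protein of the processome that acts in the synthesis of rRNA of both subunits. Its normalized counts were 23223 and 26408 in DMSO and 26401 and 28881 in auxin. The groups overlapped, with a log2 fold change of 0.16 (SE 0.202 and edgeR adjusted p = 0.453). It had the second-highest normalized count among the members after SSB1, and per kb of coding length its DMSO level was 4781. With TMM scaling it was called higher by 1.92, the largest such value of any member.

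The 21 large-subunit factors, which act in the particles that become the large subunit, were all called lower in total RNA, with a median of -1.63. With TMM scaling 9 were higher and 4 lower. MDN1, the giant ATPase midasin that strips assembly factors from the particle, had 17558 and 17142 in DMSO and 10662 and 12448 in auxin. It fell by 0.59 on the log2 scale (SE 0.202 and edgeR adjusted p = 0.00416), the smallest fall of the group, and was not called when either DMSO replicate 1 (-0.57) or auxin replicate 1 (-0.48) was left out. YLR022C, described as the exchange factor for Ria1 in the release of Tif6, fell most, from 966 and 1038 to 154 and 180 (log2 fold change -2.58, SE 0.203). TIF6, the factor that is released, had 1883 and 1968 in DMSO and 585 and 768 in auxin, a log2 fold change of -1.51, and was called higher by 0.25 with TMM scaling. YPL093W, a putative GTPase of early particles and an abundant member, had 8337 and 8872 against 2297 and 2646 (log2 fold change -1.80). Subunits of 1 complex spread widely: of the Rix1 complex, which works with midasin, RIX1 fell by 1.01, YNL182C fell by 2.01 and YHR085W fell by 2.43 on the log2 scale. YHR085W had 668 and 808 in DMSO and 110 and 161 in auxin. With TMM scaling RIX1 was called higher by 0.75 and the other 2 were called lower.

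RNase MRP is the RNA-protein enzyme that makes the cut between the subunit precursors and shares most of its proteins with RNase P. The 9 members that encode subunits of this enzyme were all called lower. Their median was -2.02, below that of all features, and 2 of the 9 lay above that median. With TMM scaling 5 were called lower and 0 higher. YDR478W (chromosome IV, 1414575 to 1415171), a subunit described as binding the RNA of RNase MRP, fell most of all 99 members. Its normalized counts were 242 and 301 in DMSO and 24.7 and 22.7 in auxin, an 11.4-fold fall (log2 fold change -3.51, SE 0.272 and edgeR adjusted p = 3.33e-36). POP7, which also serves telomerase, fell from 155 and 158 to 22.8 and 20.1 (log2 fold change -2.86). Its dimer partner Pop6 is made from YGR030C, which fell less, from 116 and 143 to 27.6 and 44.5 (log2 fold change -1.82). The most abundant subunits by count were YNL221C, with 1651 and 1580 against 348 and 448, and YBL018C, with 584 and 692 against 183 and 189. YBL018C had the smallest fall of the group (log2 fold change -1.77). These genes were short and of modest level, with a median coding length of 588 bases and a median DMSO level of 576 per kb. Within their own classes of level, 2 of the 9 lay above the class median, with a median difference of -0.11.

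The 8 proteins of small nucleolar RNA particles and their assembly were called lower, with a median of -1.37, and 7 of the 8 lay above the median of all features. With TMM scaling 6 were higher and 1 was lower. NOP56 (chromosome XII, 546097 to 547611), a core protein of the particles that guide methylation, had 16448 and 18687 in DMSO and 9082 and 9785 in auxin, a log2 fold change of -0.90 (SE 0.203). The other core proteins of these particles among the members fell by similar amounts. NOP1, the methyltransferase known in other species as fibrillarin, had 2720 and 3172 against 1064 and 1705 (log2 fold change -1.09), and NOP58 had 5799 and 6203 against 2392 and 3010 (log2 fold change -1.15). YLR175W, the pseudouridine synthase of the other particle class, fell further, from 13250 and 14649 to 4267 and 5119 (log2 fold change -1.57). PIH1, part of the chaperone complex that assembles these particles, had a larger fall. It went from 430 and 463 to 46.6 and 88.1, a 6.55-fold fall (log2 fold change -2.71, SE 0.224). With TMM scaling the 3 methylation-particle proteins were called higher, by 0.61 to 0.87, and PIH1 was called lower (-0.96).

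The 6 RNA helicases, ATP-driven enzymes that open RNA duplexes in the particles, were called lower with a median of -1.09, and all 6 lay above the median of all features. With TMM scaling all 6 were called higher. YLL008W, a DEAD-box protein of large-subunit particles, had 4675 and 5336 in DMSO and 2869 and 3072 in auxin (log2 fold change -0.75). YNL112W, a DEAD-box helicase that also acts on messenger RNA, had 6113 and 6560 against 2610 and 3103 (log2 fold change -1.15). PRP43, a DEAH-box helicase shared with splicing, had 3659 and 4037 against 1672 and 2141 (log2 fold change -1.01). PRP5, known mainly for its part in splicing, fell most of the 6 (log2 fold change -1.51). The 6 genes also lay above their own classes of level, by a median of 0.54.

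The 5 rRNA methyltransferases were called lower with a median of -1.63, and with TMM scaling 1 was higher and 0 lower. YCL054W, which methylates the transfer RNA docking site of the large-subunit RNA, had 3236 and 3769 in DMSO and 1742 and 1909 in auxin (log2 fold change -0.94). NOP2, a cytosine methyltransferase of the large subunit, had 1980 and 1710 against 615 and 705 (log2 fold change -1.48). DIM1, the dimethylase that acts late on the small subunit, fell by 1.63 on the log2 scale, and was not called with TMM scaling (0.14).

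Among the 7 other ribonucleases and RNA end factors, all called lower, the median was -1.71, and with TMM scaling 2 were higher and 1 lower. XRN1, the cytoplasmic exonuclease that degrades decapped messenger RNA and also trims rRNA precursors, had 15529 and 16002 in DMSO and 9748 and 11653 in auxin. Its log2 fold change of -0.56 (SE 0.202 and edgeR adjusted p = 0.00624) was not called when either DMSO replicate or auxin replicate 1 was left out, with values of -0.58, -0.54 and -0.44. RAT1, its nuclear counterpart, fell further, from 4320 and 4702 to 1636 and 1955 (log2 fold change -1.33). YDR412W, an exonuclease of large-subunit particles, fell most, from 307 and 298 to 55.1 and 59.6 (log2 fold change -2.40). It was also the 1 gene of this group called lower with TMM scaling (-0.64).

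The ribosome-linked chaperones gave the other 4 members that were not called, and these 4 act together. Zuo1 and Ssz1 form the ribosome-associated complex, which activates the Hsp70 chaperones Ssb1 and Ssb2 on newly made protein. SSZ1 had 16519 and 21354 in DMSO and 18877 and 21034 in auxin, a log2 fold change of 0.08 (SE 0.202 and edgeR adjusted p = 0.716). SSB1 (chromosome IV, 44065 to 45906) had 33720 and 36072 against 29764 and 35290, a log2 fold change of -0.10 (SE 0.201). For both genes the groups overlapped. ZUO1 had 5590 and 6589 against 4805 and 6520 (log2 fold change -0.10, SE 0.198), also with overlap. SSB2 had 19696 and 19250 against 15385 and 19092, so that both auxin libraries lay below both DMSO libraries by a small margin (log2 fold change -0.18, SE 0.202 and edgeR adjusted p = 0.395). The files name SSB1 and SSB2 as paralogs, and how reads shared by the pair were counted is not given in the sources used here. With TMM scaling all 4 were called higher, by 1.58 to 1.85. The remaining 2 chaperones were called lower: YMR131C, which carries the ribosomal protein Rpl3, with a log2 fold change of -1.67, and YNL227C, a co-chaperone of late large-subunit assembly, with one of -2.14. YMR131C had 7863 and 9083 in DMSO and 2565 and 2750 in auxin. Its DMSO level per kb was 5516 and that of ZUO1 was 4677, and the part of level was not tested.

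The last groups hold genes that carry the term but act elsewhere or more widely. The 3 mitochondrial factors were called lower under both scalings, with a median of -2.61. CBT1, needed for the end processing of mitochondrial RNAs, fell from 284 and 335 to 35.2 and 41.1 (log2 fold change -3.01, SE 0.249). YDR332W, a helicase that maintains mitochondrial DNA, fell from 316 and 284 to 41.8 and 56.2 (log2 fold change -2.61), and DSS1, an exonuclease of the mitochondrial degradosome, from 1277 and 1428 to 271 and 335 (log2 fold change -2.16). Of the 10 factors of wider or unclear function, all were called lower, with a median of -1.55 and a range from -3.44 to -0.40. YCR018C (chromosome III, 148238 to 148903), a zinc finger protein whose mutation suppresses a processing defect, fell from 515 and 522 to 40.9 and 53.7, a 10.9-fold fall (log2 fold change -3.44, SE 0.234 and edgeR adjusted p = 3.06e-46). At the other end, MOT1, the ATPase that removes TBP from DNA, had 2339 and 2290 against 1555 and 1950. Its log2 fold change was -0.40 (SE 0.191 and edgeR adjusted p = 0.039), and the call did not hold when either DMSO replicate (-0.39 and -0.42) or auxin replicate 1 (-0.25) was left out. SEN1, a helicase of transcription termination, was called lower with a log2 fold change of -0.64, a call lost without DMSO replicate 2. GLC7, the protein phosphatase PP1, had 7588 and 8520 against 3228 and 3584 (log2 fold change -1.24). YDR091C, an iron-sulfur protein of ribosome biogenesis and translation, had 4726 and 5464 against 2218 and 2733 (log2 fold change -1.04). With TMM scaling 5 of the 10 were higher, among them MOT1, SEN1, GLC7 and YDR091C, and 3 were lower, among them YCR018C (-1.69).

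**Figure D2:**
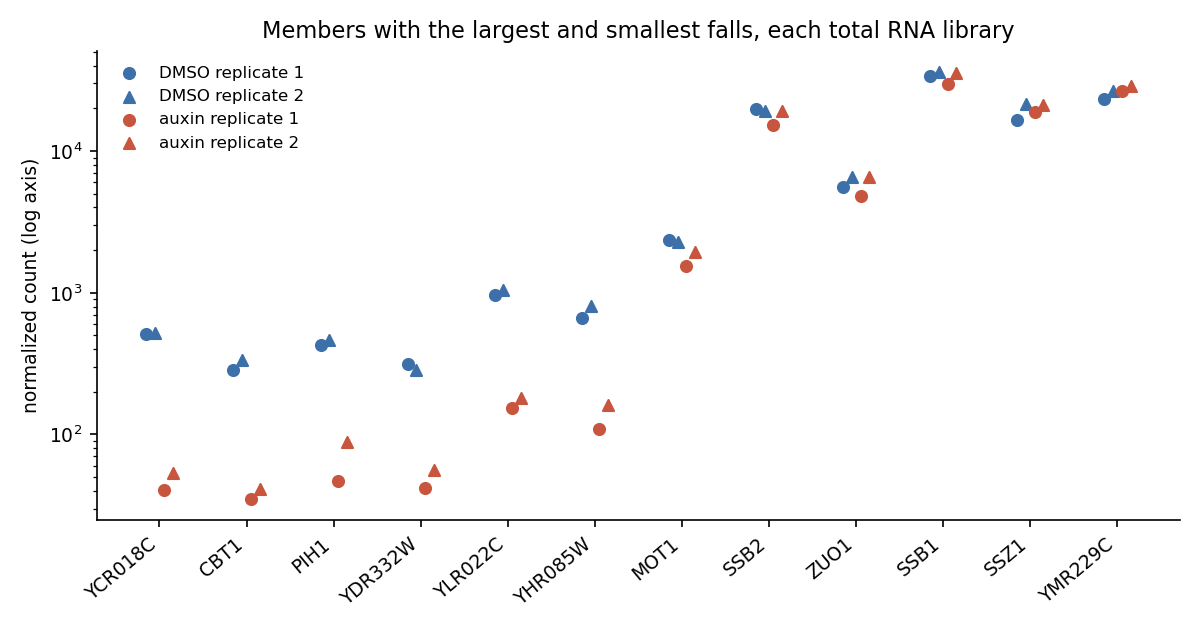
Normalized count on a log axis in each of the 4 total RNA libraries for the 6 members with the lowest and the 6 with the highest log2 fold change among members with a mean of at least 10 CPM (counts scaled to library size). For the 6 genes on the left both auxin libraries lie far below both DMSO libraries, while for SSZ1, SSB1, ZUO1 and YMR229C the libraries of the groups overlap. Under TMM scaling the 6 on the right are called higher.

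The 99 members without the chaperones, the mitochondrial factors and the genes of wider or unclear function are 80 core members. Of these 79 were called lower in total RNA, where 92.3% of all features tested were. The median was again -1.63, with the same difference of 0.22 from all features. Members were more abundant than most genes: 76 of the 99 fell in the upper 5 of 10 equal classes of DMSO level per kb. Across all features the median log2 fold change ran from -2.15 in class 3 to -0.53 in class 10. Within their own class, 53 members lay above the class median and 46 below, with a median difference of 0.05. Of the 80 core members 43 lay above, with a median difference of 0.06. In class 8, which held 23 members, their median was -1.77 against -1.66 for all features of the class, and in class 9, with 17 members, it was -1.15 against -1.33. The most abundant class went the other way, with a median of -1.07 for its 12 members against -0.53 for the class. Among those 12, YMR229C and the chaperones SSZ1, SSB1, SSB2 and ZUO1 lay above the class median, and NOP56, YLR175W, GLC7, NSR1, YMR131C, YPL093W and YKL009W below it.

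**Figure D3:**
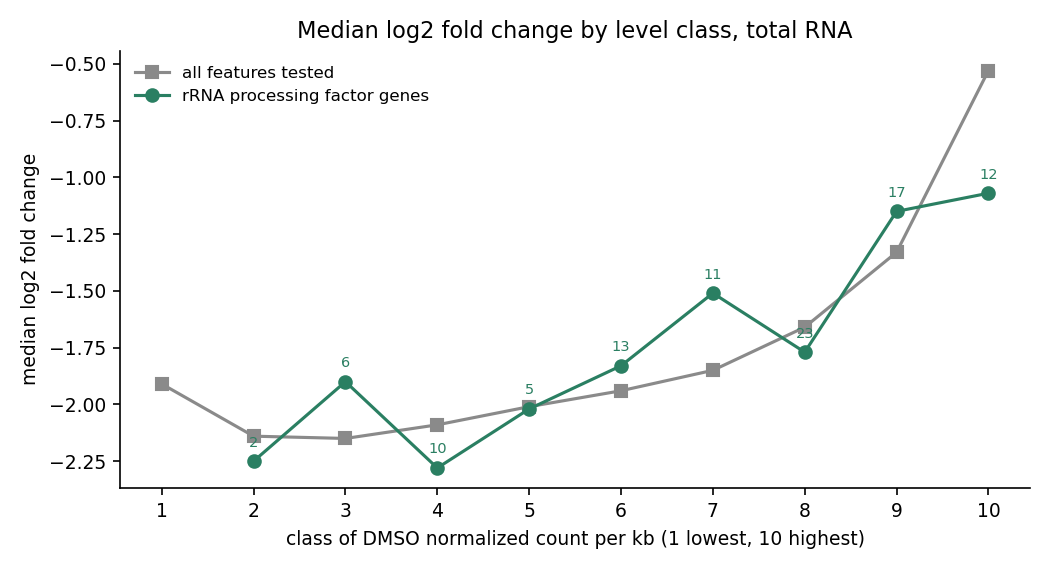
Median log2 fold change in total RNA of all features tested (grey squares) and of the members (green circles, with the number of genes) within 10 equal classes of DMSO normalized count per kb. Member medians lie within 0.34 of those of all features in classes 2 to 9, and in class 10 their median is -1.07 against -0.53. Class 1 holds no member, and TMM scaling moves both lines up by about 1.76.

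Coding length separated the members from each other more than it separated nuclear protein-coding genes at large. The 34 members under 1000 bases had a median log2 fold change of -1.80 and the 42 of 1000 to under 2000 bases one of -1.63. The 23 members of 2000 bases or more had a median of -1.01, with a range from -2.61 to 0.16. Over all nuclear protein-coding genes the medians of the same length classes were -1.81, -1.94 and -1.82. As a description across genes, which are not independent replicates and share the same libraries, Spearman's rank correlation of log2 fold change with coding length was 0.50 over the 99 members and -0.03 over 5469 nuclear protein-coding genes. It was 0.54 over the 80 core members, and 0.15 over 34 other genes with the term ribosome biogenesis. Over the 99 members it was 0.50 and 0.52 when either auxin library alone was set against the DMSO mean. These values are for total RNA. In newly synthesized RNA the correlation was 0.43 over the 34 listed members, in a partial table and without a value over all listed features beside it. Level per kb did not differ in the same way. The long members had a median DMSO level of 1178 per kb and the short ones 1157. The rank correlation of level with length was 0.11 over the members. That of log2 fold change with level was 0.54 over the members and 0.40 over the nuclear protein-coding genes. Measured from the median of their own level class, the long members lay at 0.68 and 18 of the 23 were above it, against 0.11 for all long genes. The short members lay at -0.11, and 10 of the 34 were above. These ranks need no scaling factor, although with TMM scaling the calls turned to 18 higher and 3 lower among the 23 long members, where 31.9% of all long nuclear protein-coding genes were higher and 32.4% lower. Among the 34 short members 7 were higher and 9 lower, against 29.9% and 27.6% of all short genes. The long end held MDN1 (14733 bases), SEN1 (6696 bases), MOT1 (5604 bases), YMR229C (5190 bases) and XRN1 (4587 bases), whose log2 fold changes lay between -0.64 and 0.16. The 6 shortest members were YHR087W (336 bases, log2 fold change -2.19), similar to the human SBDS protein, YGL029W (363 bases, -2.06), a factor of nucleolar integrity, the RNase MRP subunits YBL018C (402 bases, -1.77), POP7 (423 bases, -2.86) and YGR030C (477 bases, -1.82), and YLR068W (456 bases, -1.95), a small-subunit factor. Of these, YBL018C and YGR030C lay above the median of all features. The roles are unevenly spread over lengths, since the helicases had a median of 2282 bases and the RNase MRP subunits of 588, and the part of role in the pattern was not tested.

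**Figure D4:**
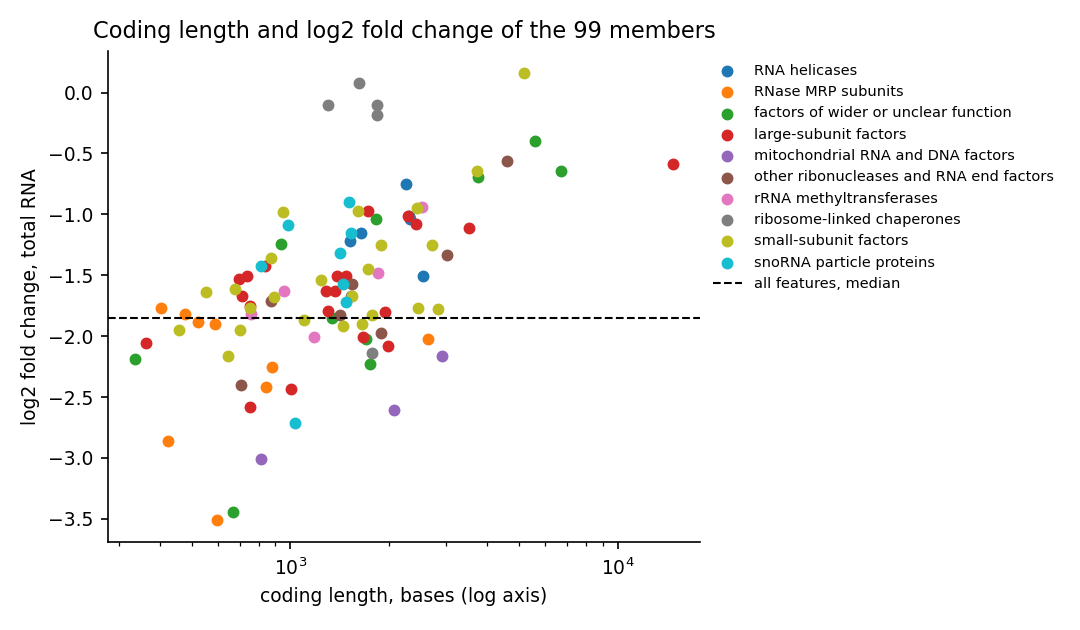
Coding length in bases on a log axis against log2 fold change in total RNA for the 99 members, coloured by role group, with the median of all features (-1.85) as a dashed line. Members of 2000 bases or more have a median of -1.01 and those under 1000 bases one of -1.80. TMM scaling moves every point and the line up by about 1.76.

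In newly synthesized RNA the table held the 42.1% of features with the authors' lowest p-values, all with an authors' log2 fold change of -2.20 or less, so calls and levels there describe the genes listed. The 34 members listed were 34.3% of the 99, against 50.5% of all features tested in total RNA. The share was 16.7% for the small-subunit factors (4 of 24) and 62.5% for the small nucleolar RNA particle proteins (5 of 8). All 34 were called lower by edgeR, as were 100% of the features listed, and 0 were higher by edgeR, by DESeq2 or at an unadjusted p below 0.05. Per library the median listed member reached 95.6% and 104% of its mean DMSO level in the DMSO cultures and 13.8% and 18.7% after auxin. The median fall was 6.22-fold (log2 fold change -2.64, range -3.83 to -2.30), where all listed features had a median of -2.80. The pooled SD between replicates was 0.229 for the members' median and 0.0693 for the difference of 0.16 between the medians. With TMM scaling, which moved the median of all listed features up by 2.79, 13 members were called higher and 5 lower, against 21.2% and 25% of the features listed. The listed members' share of nuclear protein-coding counts in this partial table was 2.16% and 2.1% in DMSO and 2.3% and 2.39% in auxin, without overlap.

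The 4 listed members with the largest falls in newly synthesized RNA were also the 4 with the largest falls in total RNA among those 34. YCR018C had normalized counts of 1541 and 1705 in DMSO and 108 and 120 in auxin, a 14.2-fold fall (log2 fold change -3.83, SE 0.231). YDR478W fell from 883 and 945 to 79.9 and 92.1 (log2 fold change -3.41), PIH1 from 1195 and 1302 to 132 and 136 (log2 fold change -3.22), and CBT1 from 832 and 928 to 96.9 and 116 (log2 fold change -3.05). These 4, with YDR332W, were the 5 members called lower under TMM scaling. The smallest fall was that of NSR1, from 25360 and 26319 to 4878 and 5647, a 4.91-fold fall (log2 fold change -2.30, SE 0.244). YJR002W, a processome component that controls the stability of Imp3 and Imp4, fell from 9254 and 9195 to 1437 and 1908 (log2 fold change -2.46). PRP43 fell from 16989 and 18317 to 2741 and 3656 (log2 fold change -2.46), and YNL182C from 7347 and 7841 to 1163 and 1549 (log2 fold change -2.49). For each of these 8 genes both auxin libraries lay below both DMSO libraries, as they did for all 2822 features listed. With TMM scaling NSR1, YJR002W, PRP43 and YNL182C were called higher, by 0.30 to 0.49.

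Log2 fold changes of the listed members were spread less in newly synthesized RNA than in total RNA. Over the 34 genes the SD across genes of the log2 fold change was 0.3 in newly synthesized RNA and 0.844 in total RNA, where the range ran from -3.51 to -0.10. The fractions were normalized separately, so no test was made between them, and the selection of the newly synthesized table by p-value narrows its range. The same numbers over all 2821 shared features were 0.315 and 0.791. SSB1, not called in total RNA, went from 34442 and 37036 to 4921 and 6136 in newly synthesized RNA (log2 fold change -2.69), and SSB2 from 24799 and 27541 to 4047 and 4955 (log2 fold change -2.54). XRN1 went from 48153 and 53390 to 7651 and 10407 (log2 fold change -2.49, against -0.56 in total RNA), and NOP56 from 29379 and 31763 to 4402 and 5813 (log2 fold change -2.58, against -0.90). For CBT1 the values of the fractions lay close together, -3.05 in newly synthesized and -3.01 in total RNA. YDR478W was the 1 gene of the 34 whose newly synthesized value was the higher, at -3.41 (SE 0.208) against -3.51 (SE 0.272). Of all 2821 shared features, 2766 had the lower value in newly synthesized RNA, so this direction was not particular to the members.

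**Figure D5:**
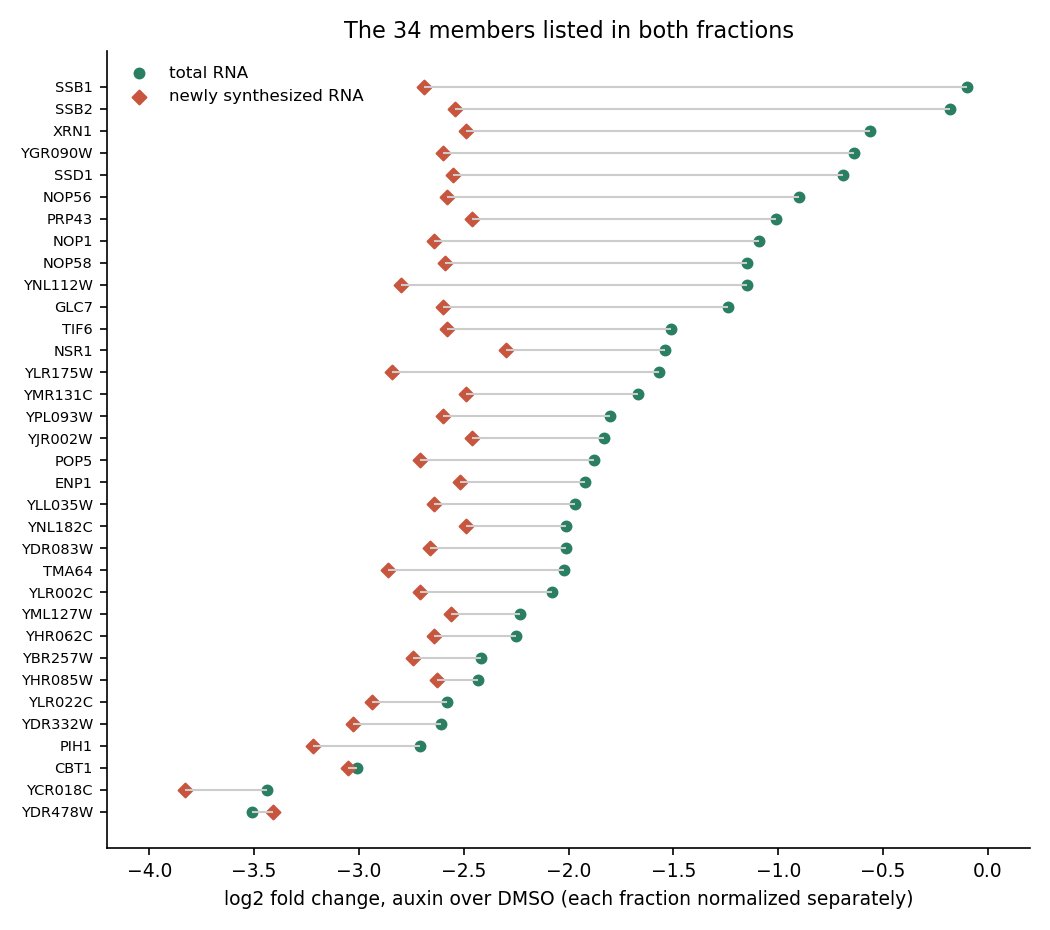
Log2 fold change of auxin over DMSO in total RNA (green circles) and newly synthesized RNA (red diamonds) for the 34 members listed in both tables, ordered by total RNA, each fraction with the authors' size factors. The newly synthesized values lie between -3.83 and -2.30 and the total RNA values between -3.51 and -0.10. TMM scaling moves the diamonds up by about 2.79 and the circles by about 1.76.

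Of 6228 neighbouring pairs of protein-coding features, 2 joined a pair of members. Of all neighbouring pairs 27.1% were divergent, the orientation in which genes share an upstream region, 27% convergent and 45.8% tandem, and 2 member pairs are too few to compare with these shares. YLR196W and NOP56 follow each other on chromosome XII (543968 to 545698 and 546097 to 547611) in the same direction, with 398 bases between them. Their log2 fold changes in total RNA were -0.97 and -0.90. YPR143W and NOC4 point towards each other on chromosome XVI (818323 to 819075 and 819765 to 821423), and their log2 fold changes were -1.75 and -1.90. NOC4 encodes the partner of Nop14 in small-subunit export and YPR143W a factor of the large subunit.

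Counts for other genes of the pathway in total RNA are given beside the 92.3% of all features called lower, and beside 29.6% higher and 32.3% lower with TMM scaling. Of 34 further genes that carry the term ribosome biogenesis, a list added after the data were seen, all 34 were called lower with a median of -1.31, and with TMM scaling 19 were higher and 6 lower. Of the RNA polymerase I genes that the files name, 7 of 8 were called lower, with a median of -1.66, and with TMM scaling 4 were higher and 0 lower. The exception was RPA190, the largest subunit of the enzyme, with 22306 and 25500 in DMSO and 22591 and 25185 in auxin (log2 fold change -0.00, SE 0.202 and edgeR adjusted p = 0.997). With TMM scaling RPA190 was called higher by 1.77. RPA135, the second-largest subunit, had 12164 and 14149 against 7388 and 8761 (log2 fold change -0.70, SE 0.201 and edgeR adjusted p = 5.48e-04), and this call did not hold without DMSO replicate 2 (-0.59). Among 11 named regulators of ribosome synthesis all were called lower, with a median of -1.67, and with TMM scaling 4 were higher and 4 lower. TOR1, a kinase that couples ribosome synthesis to nutrients, had a log2 fold change of -1.34, and REB1, a factor of RNA polymerase I and II promoters, one of -1.67. All 3 named factors of ribosomal protein handling and late large-subunit release were called lower, among them RIA1, the GTPase that removes Tif6 (log2 fold change -1.06), and AFG2, the ATPase that recycles shuttling factors (log2 fold change -1.19). With TMM scaling both were called higher.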

How the data were processed

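Per the labels' protocols, libraries were stranded and depleted of ribosomal RNA. The submitters' processing notes name build sacCer3 and bcl2fastq 2.17.1.14. Aligner, counter and use of strand are not given in the sources used here. As whole numbers, the authors deposited raw counts per S. cerevisiae feature, a normalized signal that the values show to be that count over a library's size factor, and the same signal per kb of length, per the file headers. The origin of these factors is likewise not stated. They were 1.09 and 0.728 for total DMSO, 1.05 and 1.19 for total auxin, 0.613 and 0.657 for newly synthesized DMSO and 1.59 and 1.56 for newly synthesized auxin. The authors' deposited log2 fold changes and p-values served only to show which features the newly synthesized RNA table holds: 2822 of about 6707, with p-values up to 1.64e-31. Counts over those features summed to between 4817883 and 15744423 per library, which is not the full depth. Lengths were coding lengths, as 99.9% of protein-coding lengths were multiples of 3.

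Features whose mean count reached 10 entered edgeR's quasi-likelihood F test (edgeR 4.0.16, R 4.3.3), in 1 fit per fraction over the whole table, with treatment as the only term. The fit was run on simulated data in which most features did not change. That setting differs from these data, so the simulation does not show how the fit behaves where most features fall. The series calls the 2 cultures of each group biological replicates. Alternatives were TMM and median-of-ratios scaling, DESeq2 1.42.0, other count filters, leaving out each library, a replicate block, and members that overlap no other feature, since 12 members do. The rule for named genes took, among members with at least 10 CPM, the lowest and highest log2 fold changes of each fraction, the highest levels per kb and the 2 highest counts of each role group; YDR478W, POP7 and other members outside it were named after their values were seen. The members and gene lists were chosen with earlier results of these data known. Role groups were assigned by hand from the deposited descriptions after the values were seen, as were the length classes and the list of other ribosome biogenesis genes. Gene lists were matched to the names in the files, which name 33.8% of features: 8 of 16 RNA polymerase I genes, 11 of 16 regulators, and 3 of 14 late factors. Promoter motifs were not searched.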

Additional observations from a re-analysis of the deposited data

How the results depend on the processing

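Scaling decided direction. With TMM scaling 19 members were lower and 43 higher in total RNA, with a median of 0.13, and 5 were lower and 13 higher in newly synthesized RNA, with a median of 0.15. With median-of-ratios scaling these were 16 lower and 46 higher (median 0.21), and 4 lower and 13 higher (median 0.15). The difference between the medians of members and of all features held under both scalings. A factor common to all features of a library leaves that difference nearly unchanged, so this was no separate check. In total RNA the difference was 0.18 with no filter on low counts, in place of 0.22. With 1 library left out at a time it ran from 0.21 to 0.25, the highest without auxin replicate 2. No other main count or median left its side under DESeq2, other filters, core members only or members overlapping no other feature.

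Role group medians that turned positive in total RNA were, with TMM and then median-of-ratios scaling, RNA helicases 0.67 and 0.74, wider or unclear function 0.22 and 0.29, large-subunit factors 0.14 and 0.21, other ribonucleases 0.06 and 0.13, methyltransferases 0.14 and 0.21, chaperones 1.62 and 1.69, small-subunit factors 0.10 and 0.18, and snoRNA particle proteins 0.39 and 0.47. Of all 99 members, 56 changed sign in total RNA with TMM scaling and 66 with median-of-ratios scaling. Those that the rule for named genes took, with the named comparison genes and in the same order of scalings, were MOT1 1.35 and 1.43, NOP56 0.87 and 0.95, YLR175W 0.19 and 0.26, YNL112W 0.61 and 0.69, YLL008W 1.02 and 1.09, GLC7 0.53 and 0.60, YDR091C 0.72 and 0.79, MDN1 1.17 and 1.25, XRN1 1.20 and 1.27, RAT1 0.43 and 0.51, YCL054W 0.83 and 0.90, NOP2 0.27 and 0.34, NSR1 0.22 and 0.29, PRP43 0.75 and 0.82, RPA135 1.06 and 1.13, TOR1 0.42 and 0.49, REB1 0.09 and 0.16, RIA1 0.71 and 0.78, and AFG2 0.57 and 0.64. Others described above that turned positive with TMM scaling were YGR090W 1.11, SEN1 1.12, TIF6 0.25, PRP5 0.25, NOP1 0.66, NOP58 0.61, RIX1 0.75, DIM1 0.14 and YMR131C 0.10. So did YLR196W 0.79, YPR143W 0.01, YKL009W 0.10, and the uncalled SSB1 1.66, SSB2 1.58, ZUO1 1.65 and RPA190 1.77. YBL018C (0.07), YPL093W (0.04) and YJR002W (0.01) did so with median-of-ratios scaling alone. In newly synthesized RNA they were YHR085W 0.15 and 0.15, SSB1 0.09 and 0.10, SSB2 0.25 and 0.26, NOP56 0.20 and 0.21, GLC7 0.18 and 0.19, YPL093W 0.18 and 0.19, XRN1 0.29 and 0.30, NSR1 0.49 and 0.50, YJR002W 0.31 and 0.32, PRP43 0.32 and 0.32, YNL182C 0.30 and 0.30, and RPA135 0.36 and 0.37.

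Differences between replicates 1 and 2 had a correlation between DMSO and auxin libraries of -0.121 in total RNA and 0.0515 in newly synthesized RNA. The labels number the cultures 1 and 2 under both treatments, and such small correlations cannot settle whether these were pairs. The main fit did not take them as pairs. With a replicate block 94 members were lower in total RNA (median -1.63, difference 0.22) and 34 in newly synthesized RNA (median -2.65, difference 0.16), and 0 calls were lost. A replicate block with crossed numbers, added after seeing the data, left 90 lower in total RNA. Promoter motifs were not run.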
